A study of Mus musculus with 5 samples.

Results

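Kruppel-like factors (KLFs) are transcription factors that end in a row of zinc fingers and bind GC-rich and CACCC sequences in promoters and enhancers. They fall into activators such as Klf2, Klf4, Klf6 and Klf7, a branch that recruits the CtBP corepressors (Klf3), and a branch that recruits Sin3 corepressors (Klf9, Klf10 and Klf13). In myeloid cells they are known for monocyte differentiation (Klf4), quiescence (Klf2) and macrophage activation (Klf6). The 8 genes described here were taken by symbol from the deposited table of normalized counts, which lists 27526 genes, and all 8 passed the filter on low counts.

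RNA came from mouse leukaemia cells that the labels call Kit-positive leukaemia stem cells, in an AML1-ETO9a model, where AML1-ETO9a is a truncated form of the fusion oncoprotein of human acute myeloid leukaemia. The labels give that background for all libraries, and a genotype of Plcg1 that differed between them, the gene of phospholipase C-γ1. There were 2 libraries of Plcg1 +/+ cells (wild-type 1 and 3) and 3 of Plcg1 -/- cells made by conditional deletion (deleted 2, 4 and 6). The labels give neither the strain or age of the mice nor the Cre driver, nor do they say whether libraries came from separate mice, so p-values rest on a spread among 5 samples that may be technical only.

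Libraries held 37306507 to 57133771 gene counts, and the sparsest of the 8 genes had 156 counts in a library. Deleted 6 stood apart from the other libraries. Its level of the myeloid granule enzyme gene Mpo was 4.21 CPM (counts scaled to a common library size with TMM factors), against 2706 to 5068 CPM elsewhere, and the macrophage lysozyme gene Lyz2 reached 68120 CPM against 7215 to 15420 CPM. Kit, the receptor in the label, was at 26.8 and 32.1 CPM across the wild-type pair, 672 and 304 CPM among deleted 2 and 4, and 3.08 CPM for deleted 6. Runx1t1, the mouse counterpart of the fusion partner ETO, had 5 and 13 counts for the wild-type pair against 598 to 6035 in the deleted ones. Plcg1 counts are totals over the gene, so they cannot show the loss of a part of it, and were at 22.1 and 34.0 CPM for the wild-type pair and at 26.9 to 53.0 CPM among deleted libraries. Groups below are named by label only, and members' results are given with and without deleted 6. In bulk RNA fewer cells of a type and less RNA per cell cannot be told apart. These 5 genes were chosen after their values were seen.

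The promoters of Klf6, Klf4 and Klf2 are shown because among the 8 these genes had, in turn, the largest difference between the labels, the largest departure of deleted 6, and the only lower values in all deleted libraries. Each run holds 250 bases before and 50 after the RefSeq start site (GRCm38.p6, the build of mm10). The windows are chr13:5861239-5861538 on the plus strand (Klf6), chr4:55532426-55532725 on the minus strand (Klf4) and chr8:72318812-72319111 on the plus strand (Klf2). Capitals mark every match, on either strand, to the 10 motifs named in the next paragraph.
Klf6: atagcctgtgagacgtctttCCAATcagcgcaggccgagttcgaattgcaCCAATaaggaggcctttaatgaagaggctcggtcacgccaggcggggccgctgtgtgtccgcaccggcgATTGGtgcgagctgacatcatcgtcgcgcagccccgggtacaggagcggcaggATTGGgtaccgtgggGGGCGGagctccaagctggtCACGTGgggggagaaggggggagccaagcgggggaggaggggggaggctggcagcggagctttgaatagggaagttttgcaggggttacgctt
Klf4: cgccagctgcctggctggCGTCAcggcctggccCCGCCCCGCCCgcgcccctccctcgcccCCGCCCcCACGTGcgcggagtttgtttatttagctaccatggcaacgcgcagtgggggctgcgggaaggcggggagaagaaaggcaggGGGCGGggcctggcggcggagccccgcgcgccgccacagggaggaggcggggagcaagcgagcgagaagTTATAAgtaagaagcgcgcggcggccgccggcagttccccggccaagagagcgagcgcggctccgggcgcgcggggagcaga
Klf2: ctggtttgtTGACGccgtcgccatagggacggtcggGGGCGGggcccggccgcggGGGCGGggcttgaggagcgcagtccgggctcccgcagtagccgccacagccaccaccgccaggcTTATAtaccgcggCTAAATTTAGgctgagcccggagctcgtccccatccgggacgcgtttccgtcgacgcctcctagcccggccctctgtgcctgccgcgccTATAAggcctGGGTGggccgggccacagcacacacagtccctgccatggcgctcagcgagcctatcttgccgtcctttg

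Promoter sequences were found for 7 of the 8 genes, all but Klf10. The 7 windows were GC-rich, at 58.3% to 76.7% G and C against a median of 52.7% over 32851 RefSeq promoters of the same length. They held 16 to 40 CpG pairs, against a median of 7. The GC box GGGCGG, bound by SP and KLF proteins, was in 6 of 7 windows and 35.7% of all promoters. The CACCC box, the classic KLF site, was in 5 of 7 windows and 57.5% of all promoters. In Klf3 and Klf13 a GC box and a CACCC box overlapped, and in Klf9 a CACCC box overlapped the AP-1 match. A MEF2 site, searched as CTA and TAG with any 4 bases between them, was in the Klf2 window alone, as CTAAATTTAG, and in 3.69% of all promoters. Klf6 had 4 matches to the CCAAT box, also present in Klf9 and Klf13 and in 37.4% of all promoters. The E-box CACGTG was in Klf4 and Klf6 (7.15% of all), the CRE half-site TGACG in Klf2, Klf3, Klf4, Klf9 and Klf13 (20.8%), and TATAA in Klf2 and Klf4 (24.9%). The AP-1 site TGANTCA matched in Klf9 (7.81%). Neither the Runt-domain site TGTGGT (16.8% of all) nor the glucocorticoid-type site ACANNNTGT (6.85%) was in any of the 7 windows. These are matches of letters in a window, not measured binding.

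Across all 5 libraries edgeR's quasi-likelihood test called none of the 8 genes at an adjusted p under 0.05, nor any of the 16120 genes tested (0% in each direction; smallest adjusted p 0.103). With an unadjusted p under 0.05 it listed 1 of the 8, Klf6, against 14.9% of all genes; DESeq2 called Klf6 higher, where it called 4.53% of genes higher and 2.14% lower. Limma-voom with sample quality weights called Klf6 and Klf7 higher (7.63% of genes higher, 5.87% lower). Without deleted 6, edgeR called Klf6 higher and none of the 8 lower, where 7.89% of genes were called higher and 5.07% lower. It called none of the 8 in lane 4 alone (1.26% of genes higher, 0.779% lower) or with no filter on low counts (0.539% and 0.38%). The median log2 fold change (deleted minus wild-type) of the 8 genes was 0.46 with all libraries and 0.14 without deleted 6, beside 0.01 and -0.01 for all genes tested. In CPM, for 4 of the 8 all deleted libraries exceeded both wild-type ones (22.4% of all genes), and for 1 all were under them (23.7%). With deleted 6 left out these were 4 above (28.7% of all genes) and 2 below (29.8%), and 3 of the 8 had an unadjusted p under 0.05 (28.6%). Deleted 6 was the highest library in 6 of the 8 genes and the lowest in none, where it was highest for 36.2% and lowest for 37.9% of all genes.

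**Figure D1:**
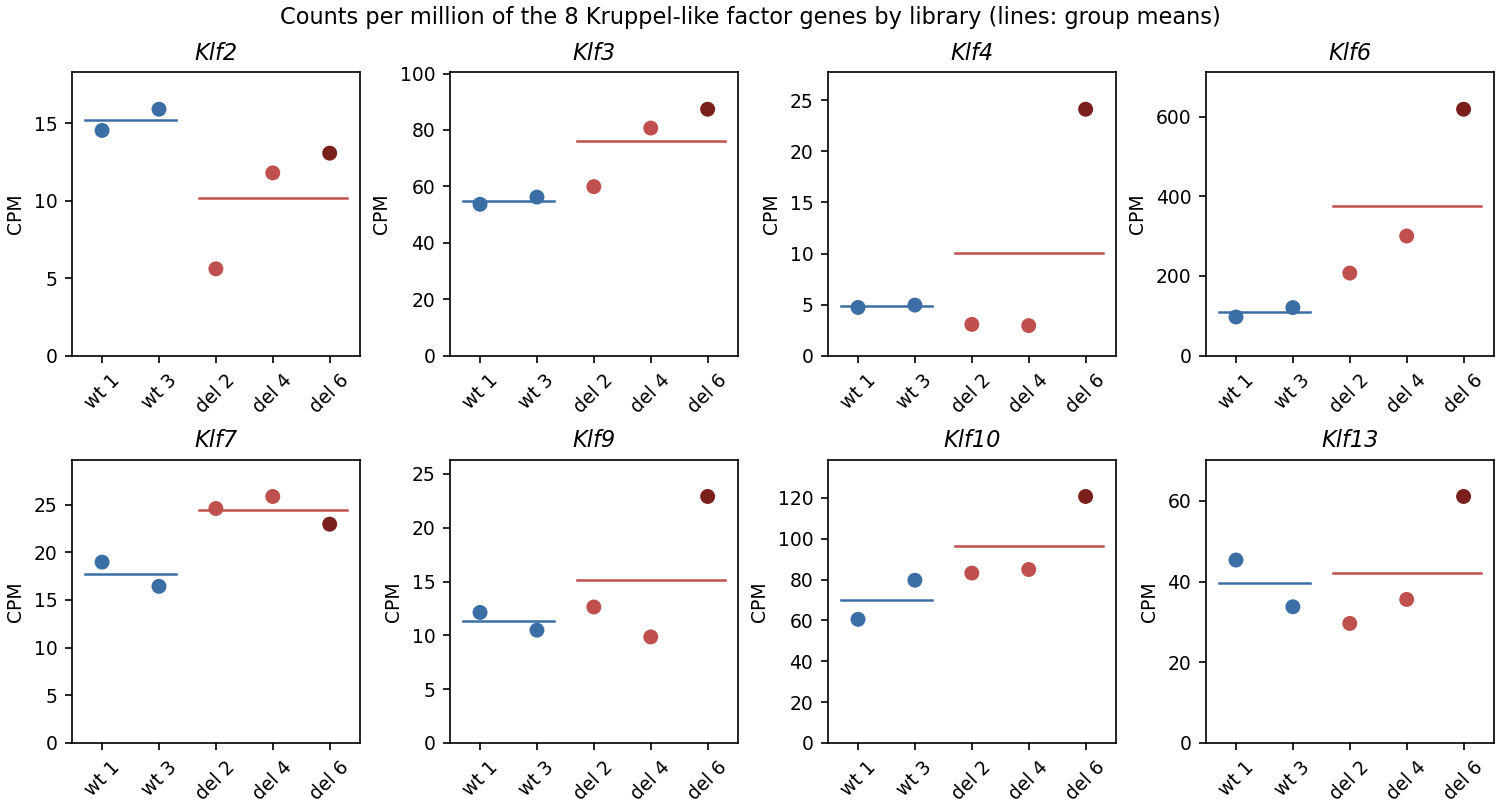
CPM (linear axes from 0) of each gene in the 2 wild-type libraries (blue) and in deleted 2 and 4 (red) and deleted 6 (dark red), with lines at the group means. Klf6, Klf3, Klf7 and Klf10 lie higher in every deleted library, Klf2 lies lower, and Klf4 is high in deleted 6 alone, at 24.1 CPM.

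Klf6, an activator described as a tumour suppressor and induced in activated macrophages, lies at chr13:5861482-5870394 on the plus strand (mm10; protein-coding). Its level was 97.1 and 121 CPM for the wild-type pair, and 207, 300.3 and 619 CPM among deleted 2, 4 and 6. All 3 deleted libraries were above both wild-type libraries, and deleted 6 was 2.06-fold above the next highest. Wild-type averaged 109 ± 16.7 CPM (SD, n = 2), and deleted libraries averaged 375 ± 216 CPM (SD, n = 3). With all libraries the log2 fold change (± SE) was 1.79 ± 0.53, at an edgeR adjusted p = 0.274. Without deleted 6 it was 1.23 ± 0.21, and Klf6 rose in that fit (adjusted p = 0.015, edgeR). DESeq2 and limma-voom also called it on all 5 libraries (adjusted p = 0.0385 and 0.0158), and over 12 alternatives the adjusted p ran from 0.015 to 0.84. Going by the lane in each file name, lane 4 alone held both labels (wild-type 3, deleted 2 and deleted 4), so it too leaves out deleted 6, which was run in another lane. There the value was 1.08 ± 0.28 (edgeR adjusted p = 0.15), on the assumption that 1 wild-type library has the spread of the other group. The ratio between the wild-type libraries was 1.24 and that between deleted 2 and 4 was 1.45, against a 2.33-fold difference of their means.

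Klf7, a close relative of Klf6, is best known in neurons and in fat cells and lies at chr1:64029447-64122282 on the minus strand. It stood at 19.0 and 16.4 CPM across the wild-type pair and at 24.6, 25.9 and 23.0 CPM among deleted 2, 4 and 6. In CPM the groups did not overlap, and deleted 6 lay inside the spread of the other libraries. As TPM (below), which scales the libraries without TMM factors, the groups did overlap. The log2 fold change was 0.47 ± 0.20 (edgeR adjusted p = 0.35), and 0.52 ± 0.17 without deleted 6 (0.0961). Limma-voom called it at 0.54 ± 0.13 (adjusted p = 0.0493; range over 12 alternatives 0.0493 to 0.841). A noncoding gene on the other strand, Gm26649, shares 3196 bases of Klf7 exon and had 0 counts in every library. With the 4 bases shared with Gm13748 (12 to 40 counts), 39.4% of Klf7 exon sequence is shared. The kits used do not mark strand, so reads of such a stretch cannot be told apart by strand. The counting settings are not given, but each library lists ambiguous reads (2.36% to 2.78%). Reads of the shared stretch may thus have been left out of both genes. The 0 counts of Gm26649 then do not show that it was silent, and Klf7 levels per exon length may be too low. Mir6899 lies in an intron.

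Klf4, a driver of monocyte differentiation and one of the pluripotency factors, lies at chr4:55527143-55532466 on the minus strand. It was the lowest of the 8 in CPM in every library but deleted 6, at 4.72 and 4.95 CPM for the wild-type pair, 3.07 and 2.94 CPM among deleted 2 and 4, and 24.1 CPM for deleted 6. Deleted 2 and 4 thus lay below both wild-type libraries while deleted 6 was 4.87-fold above the highest other library. A gap of at least 2-fold of this kind was found in Klf4 and Klf6 and in 8.77% of all genes. The log2 fold change was 1.05 ± 1.08 (edgeR adjusted p = 0.629) with all libraries and -0.67 ± 0.27 (0.159) without deleted 6. In lane 4 it was -0.71 ± 0.33, and over 12 alternatives the adjusted p ran from 0.159 to 0.867. The sign of the Klf4 difference thus turned when deleted 6 was left out, and also with limma-voom on all libraries (-0.63).

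Klf2, a factor of quiescence in T cells, monocytes and endothelium, lies at chr8:72319033-72321656 on the plus strand. It was the only one of the 8 with lower values in all deleted libraries, at 14.5 and 15.9 CPM for the wild-type pair and 5.61, 11.8 and 13.1 CPM among deleted 2, 4 and 6. Deleted 2 was the lowest library, and deleted 6 was at 0.859 of the wild-type mean. Deleted 2 and 4 differed 2.10-fold from each other, and the wild-type libraries 1.09-fold. The log2 fold change was -0.58 ± 0.41 (edgeR adjusted p = 0.513), and -0.80 ± 0.35 (0.196) without deleted 6. Without deleted 2 it was -0.29 ± 0.28 (0.575), and over 12 alternatives the adjusted p ran from 0.196 to 0.849.

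**Figure D2:**
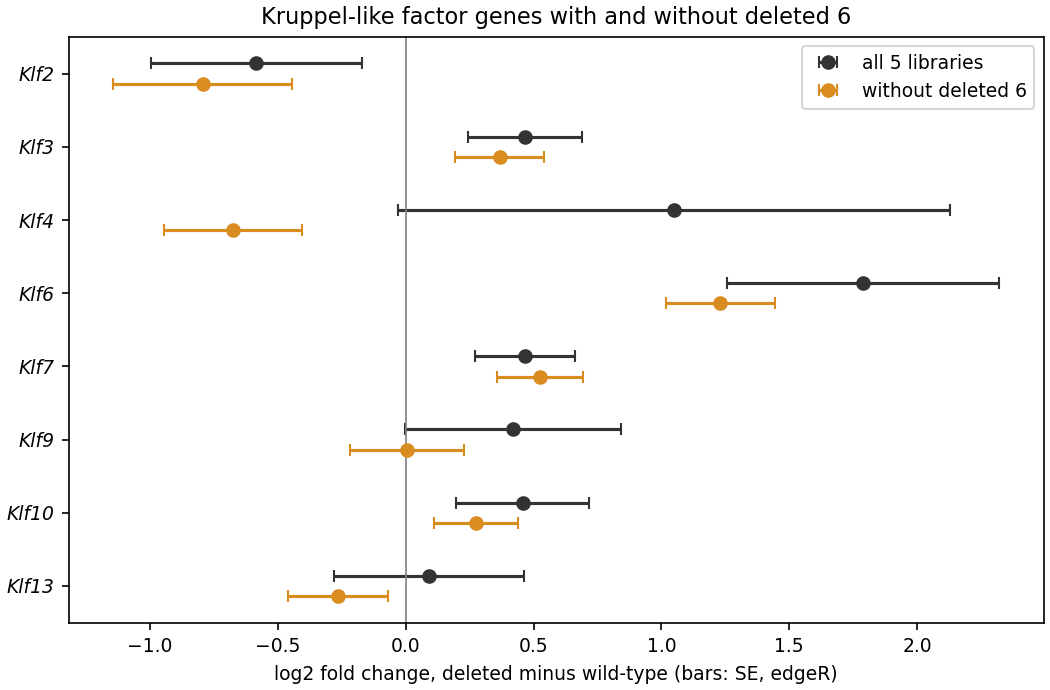
Log2 fold changes (deleted minus wild-type, horizontal axis) of the 8 genes in edgeR with all 5 libraries (dark) and without deleted 6 (orange); bars are standard errors. Klf4 moves from 1.05 to -0.67 and Klf6 stays above 1 in both fits.

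Klf3, a repressor that works through CtBP proteins and takes part in erythroid and B cell maturation, lies at chr5:64803388-64832901 on the plus strand. It was at 53.7 and 56.2 CPM for the wild-type pair and 59.9, 80.7 and 87.4 CPM among deleted 2, 4 and 6. All deleted libraries were above both wild-type libraries, with deleted 2 only slightly so. Its log2 difference was 0.47 ± 0.22 (edgeR adjusted p = 0.385), and 0.37 ± 0.17 (0.227) without deleted 6. Its relative Klf8, which Klf3 is known to repress, was at 3.79 and 2.49 CPM for the wild-type pair and 5.24, 6.00 and 10.1 CPM among deleted libraries (log2 fold change 1.18 ± 0.45, edgeR adjusted p = 0.325; 0.86 ± 0.31 without deleted 6, 0.13). Gm20033 shares 404 exon bases with Klf3 from the other strand and had 3 to 13 counts, and C230096K16Rik, on the same strand within an intron, had 15 to 84.

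None of the 3 Sin3-recruiting members was called in any fit. Klf10, an early TGF-β response gene at chr15:38291463-38300706 on the minus strand, was at 60.5 and 79.7 CPM for the wild-type pair. It stood at 83.2, 84.9 and 121 CPM among deleted 2, 4 and 6. These groups did not overlap in CPM, yet deleted 2 was close to wild-type 3. The log2 fold change was 0.46 ± 0.26 (edgeR adjusted p = 0.442), or 0.27 ± 0.16 without deleted 6 (0.34).

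Klf9, a glucocorticoid and thyroid hormone response gene at chr19:23141226-23168134 on the plus strand, was at 12.1 and 10.5 CPM for the wild-type pair. In deleted 2, 4 and 6 it stood at 12.6, 9.85 and 22.9 CPM. Deleted 6 was 1.81-fold above the next library and the other 4 overlapped. Its log2 difference was 0.42 ± 0.42 with all libraries (edgeR adjusted p = 0.624) and 0.01 ± 0.22 without deleted 6 (0.992). Mir1192 lies in its intron.

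Klf13, known as an activator of the chemokine gene Ccl5 in T cells, lies at chr7:63886351-63938915 on the minus strand. It was at 45.3 and 33.8 CPM for the wild-type pair and 29.6, 35.6 and 61.1 CPM among deleted 2, 4 and 6. The wild-type libraries lay among the deleted ones. Its log2 difference was 0.09 ± 0.37 (edgeR adjusted p = 0.908), and -0.27 ± 0.20 (0.44) without deleted 6. Gm27252 (10 to 34 counts) and E030018B13Rik lie within it on the other strand and share no exon base.

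Levels were compared between genes per kilobase of exon, as TPM, which shares a fixed total among all transcripts. Klf6 ranked first and Klf10 second in all 5 libraries, with Klf6 at 78.4 to 339 TPM and Klf10 at 51.3 to 72.3 TPM. Klf2 was the third in both wild-type libraries, at 27.9 and 31.2 TPM, and ranked below Klf3 in all 3 deleted libraries, at 11.02 to 20.9 TPM. Klf3 (16.9 to 23.5 TPM) and Klf13 (14.3 to 21.3 TPM) changed places between libraries, as did Klf9 (6.70 to 11.4 TPM) and Klf7 (6.78 to 10.985 TPM). Unlike in CPM, the groups overlapped in TPM for Klf7 and Klf10. A gene's own length does not alter its order among libraries, so this difference lies in how the libraries were scaled. TPM uses no TMM factor, which was 0.775 for deleted 6 and 1.01 to 1.11 elsewhere. Klf7 was lowest in deleted 6, at 6.78 TPM against 8.27 and 7.33 TPM for the wild-type pair. Klf10 was at 66.5 TPM in deleted 4, under wild-type 3 at 69.1 TPM. Klf4 was last in every library but deleted 6, at 3.16 to 5.89 TPM, but the fourth there at 19.0 TPM. The summed level of the 8 genes was 219 and 256 TPM in wild-type and 313, 370.4 and 500.4 TPM in deleted 2, 4 and 6. Klf6 took 35.9% and 39.0% of that sum in wild-type and 54.9%, 60.4% and 67.7% in deleted 2, 4 and 6, while Klf2 went from 12.8% and 12.2% to between 3.40% and 5.64%. These shares were not tested. Over the longest transcript in place of all exons Klf3 was the third in every library. With exon shared with other genes left out of the length, Klf7 stood at 11.2 to 18.1 TPM. It was then above Klf9 in every library but deleted 6 (11.2 against 11.4 TPM).

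**Figure D3:**
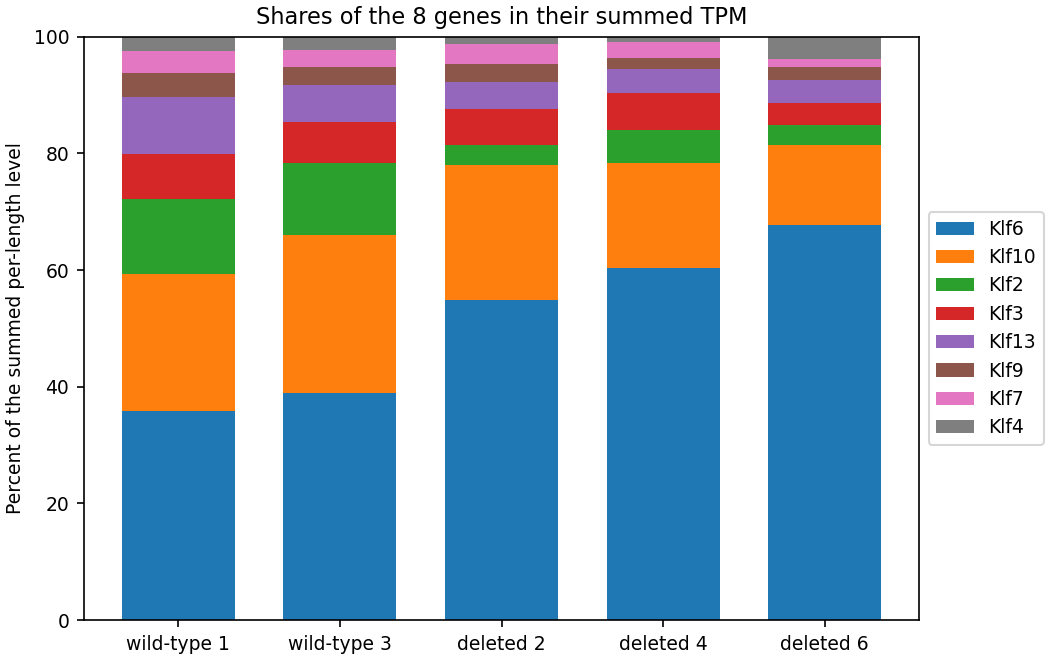
Share of each gene (percent, stacked) in the summed TPM of the 8 genes in each library. The Klf6 segment covers 35.9% and 39.0% in the wild-type libraries and 54.9% to 67.7% in the deleted ones.

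Exact 50-base sequences, the read length, were compared with all other annotated transcripts to see which reads could be assigned to more than one gene. No member shared such a sequence with another of the 8. Klf2, Klf6, Klf9 and Klf10 shared none with any other gene, Klf4 and Klf13 under 1% (0.263% and 0.147%), Klf3 3.48% and Klf7 38.2%, the last with Gm26649.

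The most similar genes were chosen by the root mean square difference of log2 CPM, centred on each gene's mean, over the 5 libraries, among 9073 candidates (9074 for Klf4) whose log2 CPM averaged 3 or more. For Klf6 the nearest was Jun, the AP-1 subunit, at a difference of 0.0626. Jun stood at 58.6 and 70.2 CPM for the wild-type pair and 124, 180.4 and 332.5 CPM among deleted 2, 4 and 6, so both genes ranked the libraries alike. Next were Zfand2a, a proteasome-associated stress gene (0.0944), and Plek, the protein kinase C substrate pleckstrin (0.102). For Klf4 they were Naaa, an acid hydrolase of the lysosome, Kifc3 and Sdc1, at 0.142 to 0.191, each highest in deleted 6. For Klf2 they were Dram1, Evl and Dhx58, at 0.120 to 0.161, each lowest in deleted 2. Within a difference of 0.2 there were 54 genes for Klf6, 3 for Klf4 and 8 for Klf2. These are descriptions over 5 libraries, with no test.

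**Figure D4:**
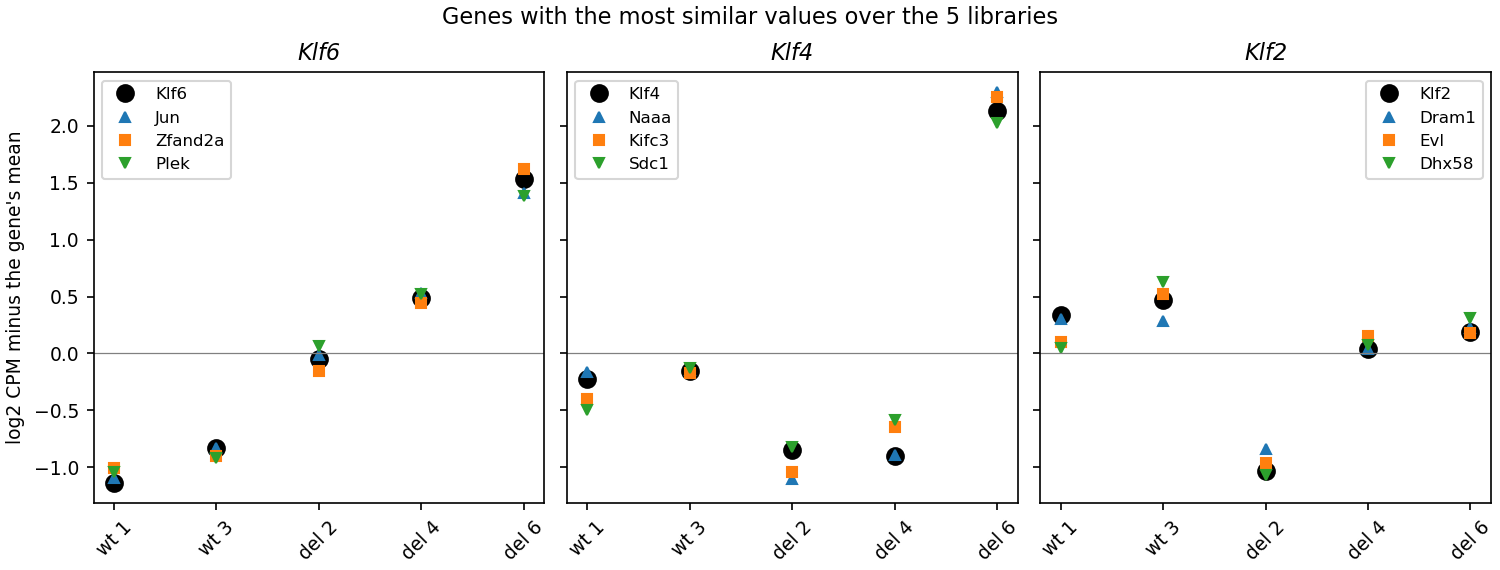
Log2 CPM minus the gene's mean over the 5 libraries (vertical axis) for Klf6, Klf4 and Klf2 (black) and the 3 genes nearest to each (coloured). Jun, Zfand2a and Plek lie beside Klf6, which is highest in deleted 6.

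Of the other Kruppel-like and SP genes, 10 of 18 passed the filter, and 4 (Klf17, Sp5, Sp6 and Sp7) had 0 counts throughout. With an unadjusted p under 0.05 there was 1 higher (Klf8) and 1 lower (Sp9, listed at 1.21 and 1.14 CPM for the wild-type pair and at no more than 0.132 CPM elsewhere), beside 9.44% and 5.42% of all genes. Sp9 fell without deleted 6 (log2 fold change -3.38 ± 0.53, edgeR adjusted p = 0.0105). It was the only call among the 10 in that fit, where 7.89% of all genes were called higher and 5.07% lower. Sp1 and Sp3, the broadly expressed SP factors, were at 34.0 to 38.7 and 88.3 to 159 CPM. The median log2 fold change of the 10 was -0.27, and -0.10 without deleted 6.

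The ERK5-MEF2 route, in which the MAP kinase ERK5 and MEF2 factors turn on Klf2 and Klf4 and class IIa HDACs oppose them, had 11 of 12 genes tested. With an unadjusted p under 0.05 there were 1 higher and 3 lower (9.44% and 5.42% of all genes). Without deleted 6 edgeR called 1 of the 11 each way, beside 7.89% of all genes higher and 5.07% lower. The median log2 fold change was -0.14, and -0.18 without deleted 6. Mef2c, a MEF2 factor of myeloid and lymphoid progenitors, was at 219 and 212 CPM for the wild-type pair and 24.7, 46.1 and 36.6 CPM among deleted 2, 4 and 6. Its groups were far apart, with a log2 fold change of -2.59 ± 0.30 (edgeR adjusted p = 0.122), and it fell without deleted 6 (-2.60 ± 0.29, adjusted p = 0.00342). Map3k2, a kinase upstream of ERK5, had a log2 fold change of 1.197 ± 0.34 (edgeR adjusted p = 0.258), and rose without deleted 6 (0.97 ± 0.24, 0.0443). Mef2a ran the other way from Mef2c, at 56.7 and 66.8 CPM for the wild-type pair and 69.7 to 151 CPM among deleted libraries (edgeR adjusted p = 0.358). Mapk7, the gene of ERK5, had a log2 fold change of 0.12 ± 0.23 (edgeR adjusted p = 0.793). Whether Mef2c and Klf2 levels are linked was not tested.

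**Figure D5:**
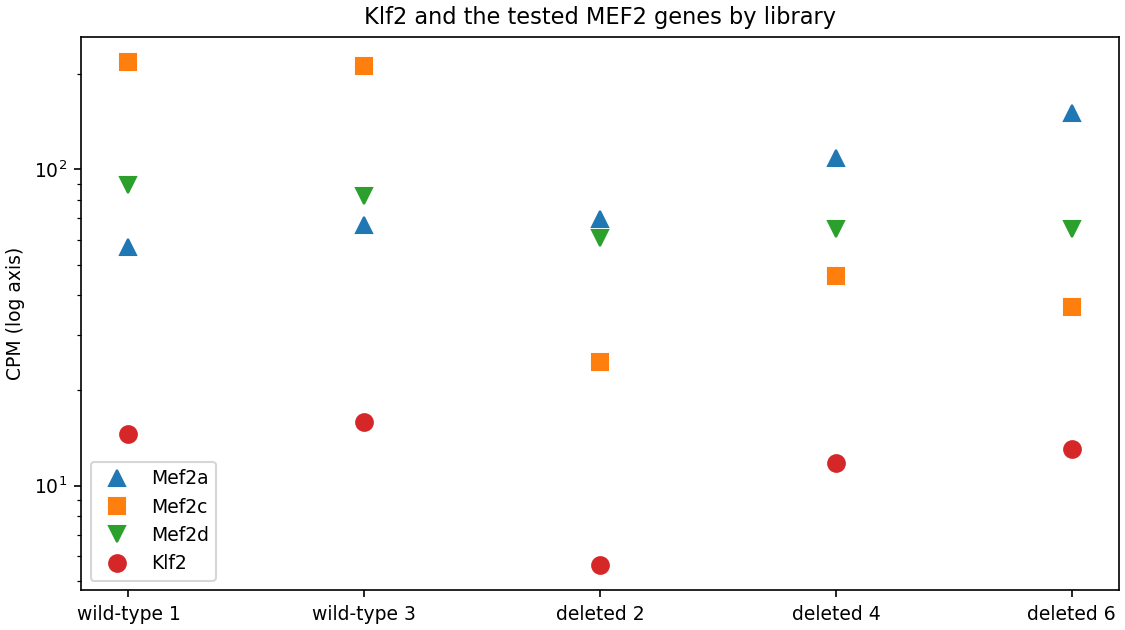
CPM (log axis) of Klf2, Mef2a, Mef2c and Mef2d in the 5 libraries. Mef2c is at 212 to 219 CPM for the wild-type pair and 24.7 to 46.1 CPM among deleted libraries, and Klf2 is lowest in deleted 2.

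Corepressors, coactivators and ubiquitin ligases that act on KLF proteins were all tested (16 of 16), with 2 higher and 0 lower with unadjusted p under 0.05 (9.44% and 5.42% of all genes). Smurf1, a ubiquitin ligase, was at 36.3 and 38.6 CPM for the wild-type pair and 78.7, 76.2 and 193 CPM among deleted 2, 4 and 6, and rose without deleted 6 (1.06 ± 0.13, edgeR adjusted p = 0.00474). Ctbp1, the corepressor of Klf3, had a log2 fold change of 0.54 ± 0.21 (edgeR adjusted p = 0.335). Smurf1 was the only one of the 16 called without deleted 6 (7.89% of all genes were called higher), and the medians were 0.18 and, in that fit, 0.25.

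Of known Klf2 and Klf4 target genes (15 of 15 tested), edgeR called 3 higher once deleted 6 was left out (7.89% of all genes). The median log2 fold change was 0.09, against 0.62 with all libraries. Arg1, arginase of alternatively activated macrophages, was at 0.289 and 0.306 CPM for the wild-type pair and 17.1, 10.04 and 2.69 CPM among deleted libraries (5.51 ± 0.40 without deleted 6, edgeR adjusted p = 0.00112). Eng, endoglin, was at 0.554 and 0.739 CPM for the wild-type pair and 7.43, 8.83 and 24.3 CPM among deleted libraries (3.65 ± 0.32, 0.00172). Ccr7 was the third higher call. The list was not split into induced and repressed targets, so neither the count nor the median measures Klf2 or Klf4 activity.

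Among glucocorticoid response genes, the class that holds Klf9, 12 of 12 were tested, with 4 higher and 0 lower with unadjusted p under 0.05 (9.44% and 5.42% of all genes). With deleted 6 left out, 2 were called higher and 0 lower in edgeR (7.89% and 5.07% of all genes), namely Sgk1 (1.57 ± 0.15, adjusted p = 0.00226) and Cdkn1c (1.57 ± 0.29, 0.0189), while Klf9 had 0.01 ± 0.22 in that fit. The class had a median of 0.36, and 0.51 without deleted 6. TGF-β receptors, Smads and early targets, the class that holds Klf10, had 11 of 12 tested, with 3 higher and 0 lower with unadjusted p under 0.05. For 9 of the 11 all deleted libraries exceeded both wild-type ones, against 22.4% of all genes. Tgfbr1, the type I receptor, was at 60.9 and 60.6 CPM for the wild-type pair and 155, 155 and 269 CPM among deleted libraries (1.36 ± 0.12 without deleted 6, edgeR adjusted p = 0.00179). Smad4 rose in the same fit (0.55 ± 0.13, 0.0378). There edgeR called 4 of the 11 higher and 0 lower, beside 7.89% and 5.07% of all genes. The class median was 0.60 there and 0.77 with all libraries, where the medians of all genes were -0.01 and 0.01.

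Several KLF genes are immediate early genes, which stress and cell handling also induce, so that class was set beside them. Of 13 tested, 3 were higher and 0 lower with unadjusted p under 0.05 (9.44% and 5.42% of all genes). With deleted 6 left out, 3 were called higher and 1 lower in edgeR (7.89% and 5.07%). Atf3, a stress-induced factor, was at 47.5 and 49.9 CPM for the wild-type pair and 109, 189 and 372 CPM among deleted 2, 4 and 6 (1.62 ± 0.26 without deleted 6, edgeR adjusted p = 0.011). Jun rose too (1.25 ± 0.21, 0.0129), and Ier3 was the third higher call. Fos, at 42.3 and 53.3 CPM for the wild-type pair and 25.4, 51.0 and 23.6 CPM among deleted libraries, did not separate the groups, and Myc was the 1 lower call. The median of the class was -0.10 with all libraries and 0.11 without deleted 6. The part of handling in the Klf6 values was not tested.

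Cell type markers moved along with the labels and with deleted 6. Their calls are from edgeR without deleted 6, where 7.89% of all genes were called higher and 5.07% lower. Mast cell and basophil genes summed to 97.1 and 153 CPM for the wild-type pair, 11280 and 5137 CPM among deleted 2 and 4 and 36.8 CPM for deleted 6, with 10 of 10 called higher without deleted 6, Cpa3 and Tpsb2 among them. Klf6 was higher in deleted 2 and 4 than in the wild-type pair, as these genes were, and was highest in deleted 6, where their sum was lowest. Of the 10 monocyte and macrophage genes, 1 (Adgre1) was, like Klf6, above both wild-type libraries in all deleted ones (22.4% of all genes). It stood at 195 and 244 CPM for the wild-type pair and 362, 628 and 731 CPM among deleted 2, 4 and 6. For 3 of the 10 all deleted libraries were under both wild-type ones (23.7%). Monocyte and macrophage genes summed to 12380 and 11930 CPM for the wild-type pair and 9100, 18950 and 73820 CPM among deleted 2, 4 and 6. Lyz2 made up most of every such sum, at 9657 and 8765 CPM for the wild-type pair and 7215, 15420 and 68120 CPM among deleted 2, 4 and 6. Of the 10 genes edgeR called 1 higher (Adgre1) and 2 lower (Ccr2 among them) without deleted 6. Neutrophil and promyelocyte genes summed to 18280 and 20110 CPM for the wild-type pair, 14130 and 15840 CPM among deleted 2 and 4, and 113 CPM for deleted 6 (5 of 10 called lower without it, Ly6g and Camp among them).

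All 8 cell cycle genes were lower in every deleted library (23.7% of all genes), from 1736 and 1877 CPM in sum to 1259, 1212 and 71.6 CPM, with 3 called lower without deleted 6. These were Aurkb, Mcm5 and Mki67 (5.07% of all genes were called lower in that fit). With all libraries none of the 8 was called, and Pcna, the replication clamp, had the smallest p, followed by Mki67. Stem and progenitor genes had 4 called higher (Kit, Cd34, Gata2 and Hlf) and 3 lower (Hoxa9, Mecom and Meis1) without deleted 6, beside 7.89% and 5.07% of all genes, and summed to 7.26 CPM for deleted 6 against 322 to 1126 CPM elsewhere. Platelet genes (7 of 8 tested) had 5 called higher without deleted 6 (7.89% of all genes), Itgb3 and Vwf among them, with sums of 85.7 and 77.9 CPM for the wild-type pair and 361 to 556 CPM among deleted libraries. Of 5 tested erythroid genes Gata1 was called higher without deleted 6. With all libraries none was called, Gata1 and Tfrc had the smallest p, and sums were 98.8 to 221 CPM. T and B cell genes stayed under 1 CPM in sum in every library, and Cd3e and Cd3g had 0 counts throughout, with Cd79a and Ebf1 the 2 of smallest p among 3 tested. Without deleted 6 the median log2 fold change was 8.42 for mast cell, 0.01 for monocyte, -0.79 for neutrophil, -0.54 for cell cycle and -0.13 for stem cell genes. It was 2.21 for platelet, -0.06 for erythroid and -0.18 for T and B cell genes, beside -0.01 for all genes. Kit is in both the mast cell and the stem cell list. Cd34 and Gata2 of the stem cell list and Gata1 of the erythroid list also followed the mast cell sum, highest in deleted 2 and lowest in deleted 6. Hlf was highest in deleted 4. The part of these cell types in the KLF values was not tested.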

How the data were processed

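Libraries were made from total RNA by SMART-Seq v4 and Nextera XT kits, per the labels' protocols, and sequenced as single-end reads of 50 bp on a HiSeq 2000, per the series' design text. The submitters' processing notes name STAR, bcl2fastq 1.8.4, DESeq2 1.12.4 and mm10, but no annotation or counting setting. The authors deposited whole-number read counts for 46603 genes per library, and a table of normalized signal in which each library's counts are divided by 1 factor. Rows naming no gene stayed out; reads without a feature were 5.89% to 8.09%, ambiguous reads 2.36% to 2.78% and multiply aligned reads 13.0% to 15.1% of a library. A count of 3 was 0.0525 to 0.0804 CPM before scaling, which covers counting error only.

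Groups came from the labelled genotype. The whole table was fitted with edgeR 4.0.16 (filterByExpr, TMM, quasi-likelihood F test; limma 3.58.1, R 4.3.3) on genotype alone, leaving 3 residual degrees of freedom, with Benjamini-Hochberg adjustment over 16120 genes and calls at 0.05. The SE is the log2 fold change's size divided by the root of F. DESeq2 1.42.0, limma-voom, other filters and scalings, single libraries left out and lane 4 alone were alternatives. With 2 against 3 libraries an exact permutation test cannot go below a two-sided p of 0.1 and was not used. TPM used merged exons of GENCODE M21 on GRCm38, the build of mm10; gene positions are from there too, and promoters from RefSeq.

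The 8 genes and all lists were chosen with earlier results of these data known. Every member is named; of each other list up to 2 genes called each way, or the 2 with the smallest unadjusted p; and the 3 genes nearest in pattern to each member. Klf17, Sp5, Sp6, Sp7, Sp1, Sp3, Mef2a, Mef2d, Mapk7, Ccr7, Ier3, Fos, Myc, Aurkb, Mcm5, Cd34, Gata2, Hlf, Meis1, Itga2b, Cd3e and Cd3g were added after their values were seen. The result of 1 gene in the list of Klf2 and Klf4 targets is not reported here.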

Additional observations from a re-analysis of the deposited data

How the results depend on the processing

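No paired analysis was possible because the groups share no replicate number. Of the 12 alternatives, Klf2, Klf3, Klf6, Klf7 and Klf10 kept their direction in 12. Klf4 reversed with limma-voom (-0.63), without deleted 6 (-0.67) and in lane 4 (-0.71), which holds wild-type 3, deleted 2 and deleted 4 and so also lacks deleted 6, and ranged from -0.67 to 1.49 with single libraries left out. Klf9 reversed with limma-voom (-0.09). Klf13 reversed with limma-voom (-0.16), on total gene counts without a scaling factor (-0.18), in lane 4 (-0.04), without wild-type 3 (-0.10) and without deleted 6 (-0.27), up to 0.32 without wild-type 1. The cause was not tested, beyond the removal of that library or lane. Scaling by total counts, chosen after seeing the data, moved the median of all genes by -0.20 on the log2 scale; no gene was called.

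Calls among the 8 genes were 0 in each direction with all libraries in edgeR, 1 higher with DESeq2, 2 higher with limma-voom and 0 to 1 higher with single libraries left out; 0 were lower under every alternative. Over all genes the 0 calls became 163 higher and 115 lower with no filter on low counts, 838 and 396 with DESeq2, 1230 and 947 with limma-voom, and 211 and 131 in lane 4. With single libraries left out they ran from 0 to 1245 higher and 0 to 800 lower, both highs being without deleted 6; where 1 wild-type library remained, it is assumed to vary like the deleted ones. The mean share of Klf3 in the summed level went from 6.22% to 11.2% over the longest transcript, and that of Klf7 from 2.87% to 4.62% with shared exons left out of the length, an alternative added after seeing the data. The other shares moved by less than their spread over libraries.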

Other observations

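The genes nearest in pattern were also taken for the other 5 members. Kif16b, Pcnx and Parp11 lay nearest to Klf10, at root mean square differences of 0.0299 to 0.0368 in log2 CPM over 5 libraries. Sdhaf4, Lyrm2 and Lhpp, of which the first is an assembly factor of mitochondrial complex II, lay nearest to Klf13, at 0.0308 to 0.0496. Zbtb6, Zfyve16 and Epb4.1l2 lay nearest to Klf3 (0.0451 to 0.0520), Sos1, Smad1 and Ttc19 to Klf7 (0.0559 to 0.0609), and Fam109a, Nr2f6 and Got1 to Klf9 (0.0658 to 0.0974). Within a difference of 0.2 there were 1019 genes for Klf10, 964 for Klf3 and 659 for Klf7, so nearness of this size was common for them.

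Among pairs of the 8 genes themselves the smallest difference was between Klf3 and Klf10 (0.178) and the largest between Klf2 and Klf6 (1.17). Klf6 and Klf7, named above as close relatives, differed by 0.811. Among the Sin3-recruiting members the differences were 0.257 (Klf9 and Klf13), 0.3 (Klf9 and Klf10) and 0.367 (Klf10 and Klf13).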
